A study of Mus musculus with 9 samples.

Results

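The genes described here encode the factors that start and extend protein synthesis on the ribosome, together with the kinases and inhibitors that act on them. They were taken by name, as every gene whose symbol begins with Eif and a digit from 1 to 6, or with Eef and 1 or 2, and that had at least 30 counts summed over the 9 libraries. Of 24505 genes in the table, 65 carried such a symbol and 63 reached the minimum. The remaining genes, Eif3j1 and Eif3j2, had 0 counts in every library.

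Initiation begins when eIF2 brings the initiator tRNA to the small ribosomal subunit, where eIF1, eIF1A and eIF3 help it scan for the start codon, while eIF4E, eIF4G and the helicase eIF4A load the capped mRNA. Elongation then relies on eEF1A, which delivers the charged tRNAs, and on eEF2, which moves the ribosome along. Phosphorylation of eIF2 or eEF2, and the eIF4E-binding proteins, are the classical brakes on these steps, and male germ cells store many mRNAs for later translation.

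The study used bulk RNA-seq to follow male germ cells into meiosis with and without continued synthesis of retinoic acid (RA). All cells came from Uchl1-eGfp mice outcrossed to CD-1 mice, whose germ cells carry EGFP under the promoter of Uchl1, and were sorted by their fluorescence. Every mouse received WIN18,446, an inhibitor of RA synthesis, at 100 µg/g from postnatal day (P)1, and 10 µl of RA at 10 µg/µl on P11 to start spermatogonial differentiation together in all tubules. The 3 groups of 3 libraries were In/B spermatogonia taken at P17 and RA-sufficient preleptotene (PL) spermatocytes taken at P19, both after WIN18,446 had been stopped, and RA-deficient PL spermatocytes taken at P19 while it was continued. Testes of several animals of a litter were pooled, but the sources differ on how many. The study's methods describe independent cell preparations for RNA-seq, but give a number that can be below 3. The sources thus do not show that the 3 libraries of each group all came from separate preparations. The p-values below measure only the spread between these libraries, which may be technical.

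The libraries held 12612959 to 27042274 counts, of which the 63 genes took 1.73 to 1.92% in In/B spermatogonia, 1.20 to 1.23% in RA-sufficient PL and 1.36 to 1.42% in RA-deficient PL. In cells sorted as germ cells, 5 germ cell markers summed to 4922 to 5989, 2525 to 2939 and 4646 to 5686 CPM, a count scaled to the TMM-adjusted library total, in these groups, and 7 markers of spermatocyte entry summed to 583 to 1122, 2627 to 3418 and 3170 to 3693 CPM. The 9 Sertoli cell markers measured, Sox9, Amh and Fshr among them, summed to 71.7 to 374 CPM in In/B, 3119 to 4069 CPM in RA-sufficient PL and 312 to 548 CPM in RA-deficient PL, and all 9 were called higher in RA-sufficient PL than in In/B. RA-deficient PL replicate 3 stood apart from the other libraries of its group, with 315 CPM summed over 5 markers of differentiating spermatogonia beside 1378 and 1349 CPM, where In/B held 1289 to 1669 and RA-sufficient PL 226 to 333 CPM. The RA-induced gene Stra8 was at 377, 365 and 81.5 CPM in RA-deficient PL replicates 1 to 3 and at 444, 126 and 121 CPM in RA-sufficient PL, so that its level did not follow the labels. The study also reported no significant change of Stra8 mRNA in RA-deficient PL, and proposed that its level there appears independent of RA. By qRT-PCR it found no rise of this mRNA in RA-deficient PL, and STRA8 protein was undetectable. The part of the marker and Stra8 differences in the results below was not tested, and in such sorted populations fewer cells of a type and less RNA per cell cannot be told apart.

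Per kilobase of exon, which allows genes to be compared, the 63 mRNAs spanned a wide range in these cells. Eef1a1, which encodes the carrier of aminoacyl-tRNA, averaged 587 CPM per kilobase over the 9 libraries and Eef2, the translocation factor, 514. They were followed by Eif5a at 196, and by the eIF3 scaffold subunit Eif3c at 186 and Eif3g at 178, both chosen for mention after their values were seen. At the low end stood Eif4e1b, a germline form of the cap-binding protein best known from oocytes, at 0.74, Eif4e3 at 0.475 and Eef1a2, the form of eEF1A used in muscle and neurons, at 0.305 CPM per kilobase. The mean level was highest in In/B spermatogonia for 44 of the 63 genes, in RA-deficient PL for 15 and in RA-sufficient PL for 4. It was lowest in RA-sufficient PL for 36. How many of all genes had their highest or lowest mean in each group was not counted.

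**Figure D1:**
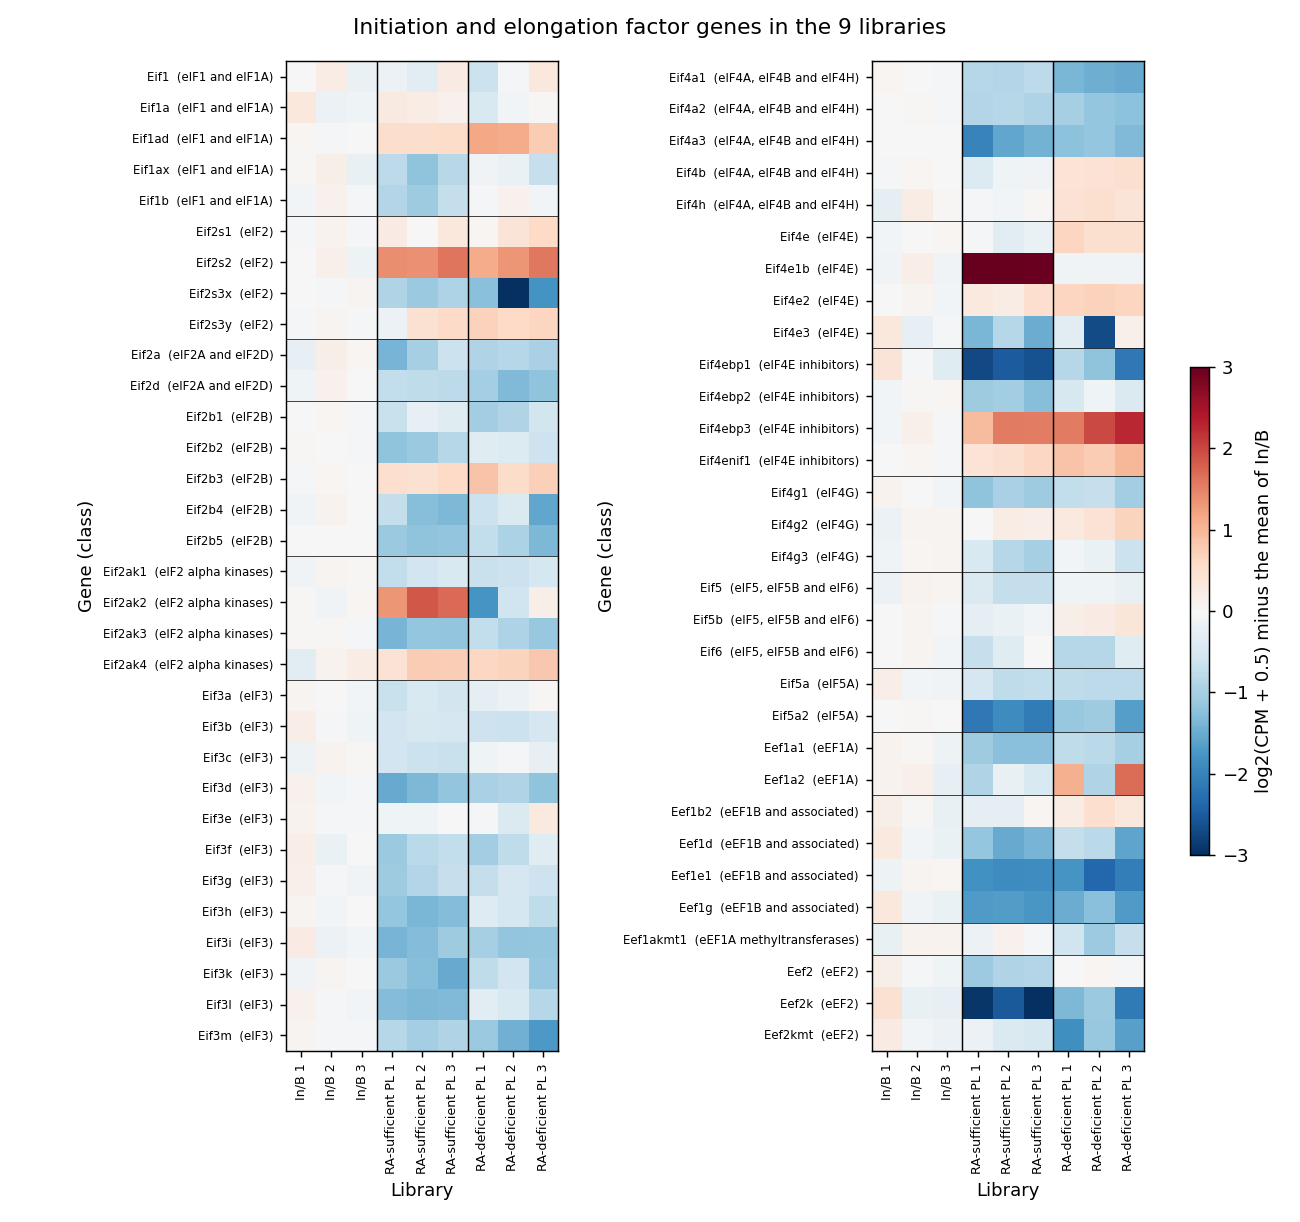
Level of each of the 63 genes in the 9 libraries, as log2(CPM + 0.5) minus the mean of the 3 In/B libraries, with genes on the y axis grouped by class and libraries on the x axis. Blue, lower than In/B, prevails in the RA-sufficient PL columns, where 47 of the 62 genes tested were fitted lower, and Eif2s2, Eif2ak2, Eif4ebp3 and Eif4e1b, the 4 that rose, are red there.

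The summed level of all 63 genes separated the groups. It was 18110, 17748 and 16863 CPM in In/B replicates 1 to 3, 11225, 11482 and 11868 CPM in RA-sufficient PL, and 14903, 15197 and 14853 CPM in RA-deficient PL. No library of a group fell within the range of another group. Changes of single genes were then fitted between pairs of groups with edgeR's quasi-likelihood test, and a gene was called when its log2 fold change exceeded 1 in size with a Benjamini-Hochberg adjusted p below 0.05 over all genes tested. Only called genes are said to rise or fall.

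Between In/B spermatogonia and RA-sufficient PL spermatocytes, the transition into meiosis with RA present, 24 of the 62 factor genes tested were called, where 45.4% of all 15001 genes were. They were 20 that fell, where 19.3% of all genes fell, and 4 that rose, where 26.1% did. The median log2 fold change was -0.71 over these 62 genes and 0.04 over all genes. Without a threshold on the fold, 38 were lower and 9 higher at an adjusted p below 0.05, where 31.2% and 33.8% of all genes were. The libraries of the groups did not overlap for 51 of the 62, where 71.5% of all genes had such a separation. Eif2b2, Eif2b4, Eif4e3, Eif4ebp2 and Eif4g1 lost their call when particular libraries were left out (In/B replicate 1 for Eif2b2 and Eif4g1, RA-sufficient PL replicate 1 for the same 2 genes, replicate 2 for Eif2b2 and Eif2b4, and replicate 3 for Eif2b4, Eif4e3 and Eif4ebp2). Eif2b2, Eif2b4 and Eif4g1 also lost it with the minimum mean of 50 counts, and Eif4e3 with 1 fit of all 9 libraries (adjusted p = 0.173).

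Between In/B spermatogonia and RA-deficient PL spermatocytes, the same transition with RA synthesis blocked, 14 of 62 were called, where 23.2% of all 14877 genes were. They were 10 that fell, where 11.8% of all genes fell, and 4 that rose, where 11.4% did, and the median log2 fold change was -0.42 beside 0.00 over all genes. At an adjusted p below 0.05 with any fold, 41 passed, where 36.7% of all genes did, 26 of them lower and 15 higher. With scaling by library size alone, which moved the median of all genes by -0.32, the calls became 19 lower and 2 higher. Leaving out RA-deficient PL replicate 3 gave 11 calls and leaving out replicate 1 gave 18. Over all genes the calls were 3446 in the main fit and 3885 with scaling by library size alone. They were 3995 of 15328 without replicate 3 and 3573 of 15404 without replicate 1.

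Between the PL groups, which differ in RA synthesis after P11, 5 of 62 factor genes were called, where 15.5% of all 15352 genes were. Eef2k and Eif4ebp1 were higher in RA-deficient PL, where 4.47% of all genes were, and Eif2ak2, Eef2kmt and Eif4e1b were lower, where 11% were. The median log2 fold change was 0.31 over the factor genes and -0.09 over all genes, and 44 of 62 were fitted higher in RA-deficient PL (38 with scaling by library size alone). At an adjusted p below 0.05 with no fold threshold, 18 were higher and 4 lower, where 11% and 12.6% of all genes were. Leaving out any library but RA-deficient PL replicate 3 reduced the 5 calls to 1 or 2, and leaving out that one gave 5. The calls over all genes changed as well. They went from 2383 to between 1190 and 1773 without 1 of the former libraries, and to 4484 of 15799 without RA-deficient PL replicate 3.

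**Figure D2:**
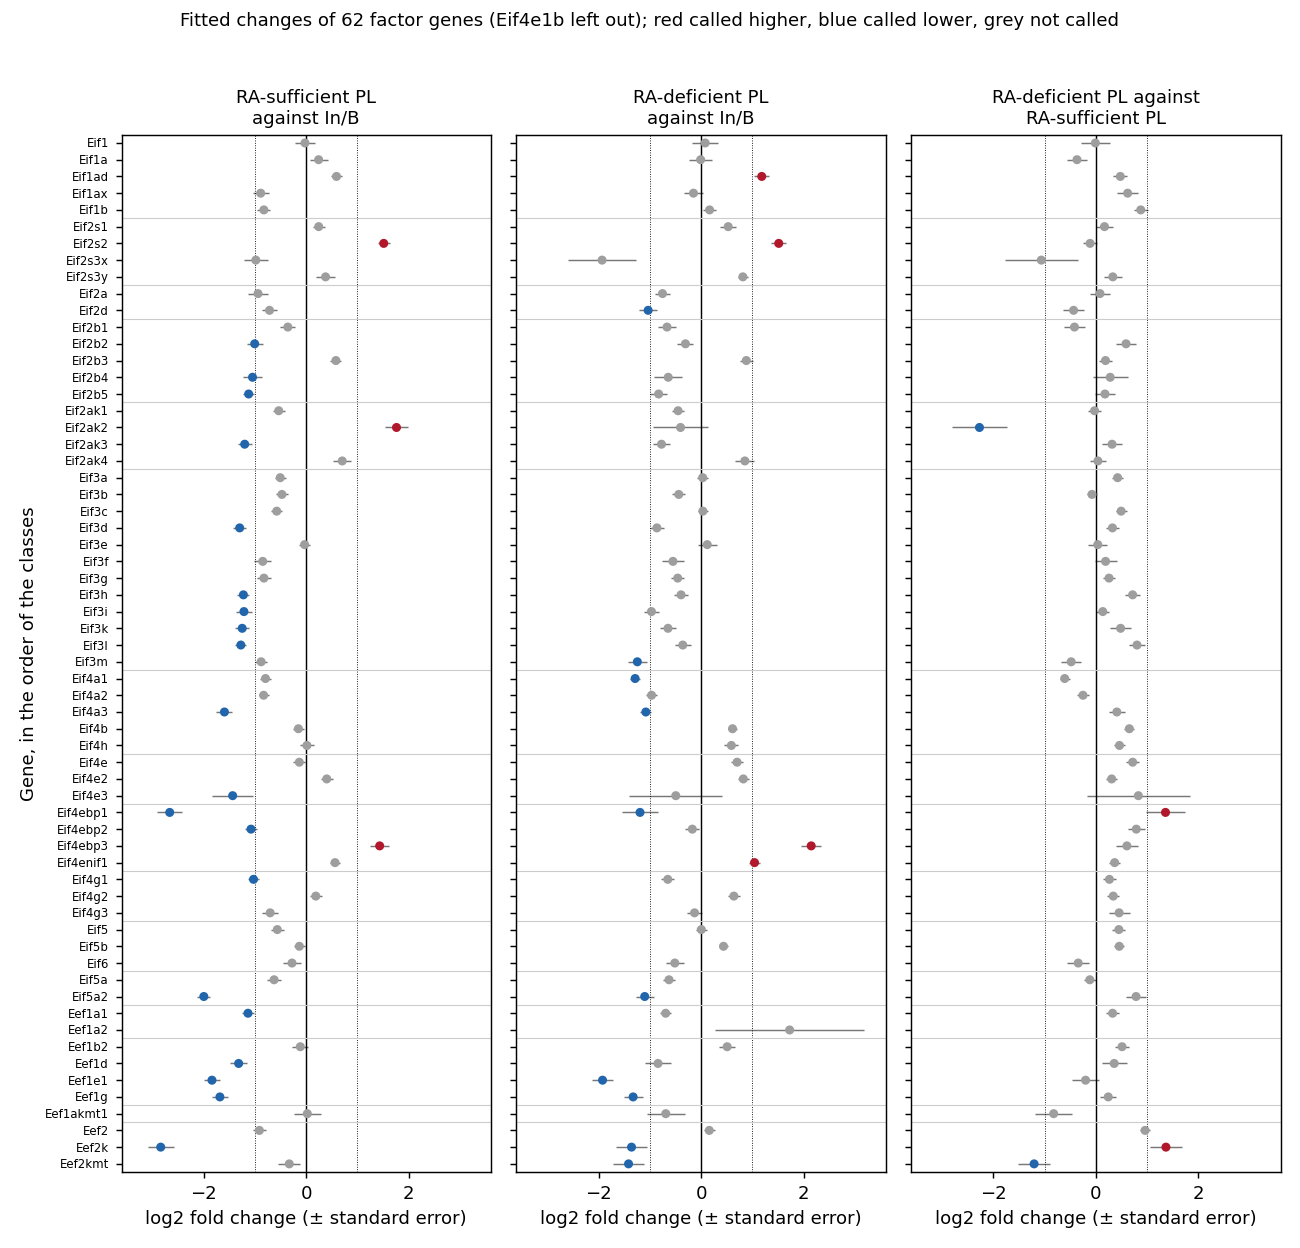
Fitted log2 fold change with its standard error (x axis) of 62 factor genes (y axis, ordered by class, without Eif4e1b) in the 3 comparisons, with dotted lines at -1 and 1. In RA-sufficient PL against In/B most points lie left of 0, with Eef2k at -2.84 and Eif4ebp1 at -2.66 farthest out, and between the PL groups both lie right of 1.

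Among the 4 genes of eIF2, the complex that carries initiator tRNA, mRNA of the beta subunit rose in both PL groups. Eif2s2 (chr2:154697146-154718671, minus strand, NCBIM37) was at 129, 143 and 116 CPM in In/B, 337, 334 and 392 CPM in RA-sufficient PL, and 278, 322 and 385 CPM in RA-deficient PL. Every PL library was above every In/B library, and the PL groups overlapped. Its log2 fold change from In/B was 1.51 ± 0.12 (SE, adjusted p = 2.36e-05) in RA-sufficient PL and 1.52 ± 0.15 (adjusted p = 0.000241) in RA-deficient PL, and of its 75-base stretches 32.1% also occur elsewhere in the genome. The Y-linked gamma subunit gene Eif2s3y, needed for spermatogonial proliferation, was at 132 ± 6.96 (SD, n = 3), 164 ± 42.5 and 206 ± 6.33 CPM. The difference of RA-deficient PL from In/B, 0.82 ± 0.10 on the log2 scale (adjusted p = 0.000818), was under the fold threshold. Its X-linked partner Eif2s3x was far lower, at 13.2 ± 0.734, 6.42 ± 0.520 and 3.08 ± 2.32 CPM, with only 15 counts in RA-deficient PL replicate 2 beside 130 and 79 in the others. As 91.7% of its stretches occur elsewhere in the genome, its level depends on how shared reads were counted.

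eIF2B, which recharges eIF2 with GTP, showed subunit genes moving unequally. In RA-sufficient PL, 3 of its 5 genes fell. Eif2b5, the catalytic subunit, was at 156, 159 and 156 CPM in In/B and 72.1, 67.8 and 68.2 CPM in RA-sufficient PL, a log2 fold change of -1.12 ± 0.11 (adjusted p = 4.93e-05), and at 94, 80.8 and 61.3 CPM in RA-deficient PL, below In/B but not called (-0.83 ± 0.17, adjusted p = 0.00686). Eif2b4 and Eif2b2 fell by 1.05 ± 0.19 and 1.00 ± 0.15 on the log2 scale in RA-sufficient PL. Eif2b3 went the other way, with 95.8 ± 2.80, 138 ± 7.25 and 157 ± 17.6 CPM in In/B, RA-sufficient PL and RA-deficient PL, and log2 fold changes from In/B of 0.58 ± 0.11 (adjusted p = 0.00139) and 0.88 ± 0.13 (adjusted p = 0.00138), under the fold threshold.

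Of the 4 kinases that phosphorylate the alpha subunit of eIF2 under stress, 1 rose and 1 fell in RA-sufficient PL and 0 were called in RA-deficient PL against In/B. Eif2ak2 (chr17:79251904-79281913, minus strand), which encodes PKR, the kinase activated by double-stranded RNA, was at 8.27, 7.52 and 8.42 CPM in In/B. It was at 20.8, 30.9 and 27.4 CPM in RA-sufficient PL and at 2.00, 5.15 and 9.23 CPM in RA-deficient PL. The RA-sufficient libraries lay above all others, while the RA-deficient libraries spread widely and overlapped with In/B. It rose by 1.76 ± 0.22 on the log2 scale from In/B to RA-sufficient PL (adjusted p = 0.000204) and was lower by -2.27 ± 0.53 in RA-deficient than in RA-sufficient PL (adjusted p = 0.0226). The second call was lost without RA-sufficient PL replicate 1, 2 or 3 or RA-deficient PL replicate 2 (adjusted p up to 0.0789), and the Sertoli cell markers above moved in the same directions in these comparisons, a link that was not tested.

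Eif2ak3, which encodes PERK, the kinase of the endoplasmic reticulum, fell from 69.9 ± 2.10 CPM in In/B to 29.3 ± 2.66 CPM in RA-sufficient PL (-1.20 ± 0.14, adjusted p = 0.000131) and was at 36.4 ± 4.91 CPM in RA-deficient PL (-0.77 ± 0.16, adjusted p = 0.00784, not called). Eif2ak1, the heme-regulated kinase, was at 144 ± 9.15, 95.8 ± 9.56 and 94.1 ± 4.85 CPM, and Eif2ak4, which encodes the amino acid sensor GCN2, at 37.6 ± 7.05, 58.8 ± 7.24 and 60.5 ± 4.02 CPM in the same order of groups. Neither was called, although for both genes the PL libraries did not overlap with In/B. Eif2a and Eif2d, whose proteins can deliver initiator tRNA without eIF2, were lower in PL, and Eif2d fell in RA-deficient PL (45.6 ± 4.19 to 19.9 ± 2.28 CPM, log2 fold change -1.03 ± 0.18, adjusted p = 0.00334), a call lost without In/B replicate 2 or RA-deficient PL replicate 2.

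Of the genes for start codon selection and scanning, Eif1ad, a relative of eIF1A, rose in RA-deficient PL. It was at 86.7, 80.0 and 82.4 CPM in In/B, 120, 120 and 121 CPM in RA-sufficient PL and 185, 179 and 140 CPM in RA-deficient PL, so that the 3 groups did not overlap. The log2 fold change from In/B was 1.18 ± 0.15 in RA-deficient PL (adjusted p = 0.000758), a call not kept with scaling by library size alone, and 0.59 ± 0.11 in RA-sufficient PL (adjusted p = 0.00156). Eif1b was at 158 ± 13.6, 86.1 ± 10.5 and 158 ± 13.3 CPM, lower in RA-sufficient PL than in either other group (log2 fold change from In/B -0.82 ± 0.13, adjusted p = 0.000578) and under the fold threshold. Its close relative Eif1 was at 47.2 ± 6.94, 44.7 ± 9.41 and 44.4 ± 14.5 CPM, with overlapping groups. Of the eIF1A genes, the X-linked Eif1ax was at 110 ± 15.5, 57.2 ± 8.60 and 88.2 ± 18.3 CPM and Eif1a at 47.6 ± 9.44, 54.3 ± 2.95 and 42.2 ± 7.43 CPM, and neither was called.

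eIF3, the many-subunit scaffold on the small ribosomal subunit, had lower mRNA levels in RA-sufficient PL throughout. All 12 of its genes were fitted lower in RA-sufficient PL than in In/B, with a median log2 fold change of -0.86 (from -1.30 to -0.03), 11 of them at an adjusted p below 0.05, and 5 fell past the fold threshold. Of all genes, 48.6% were fitted lower, 31.2% were lower at that adjusted p and 19.3% fell. The 5 eIF3 genes that fell were Eif3d, Eif3h, Eif3i, Eif3k and Eif3l. Eif3l (chr15:78905653-78924830, plus strand) was at 374, 332 and 326 CPM in In/B, 139, 135 and 137 CPM in RA-sufficient PL and 277, 250 and 191 CPM in RA-deficient PL, with no overlap between the groups. It fell by 1.27 ± 0.11 on the log2 scale in RA-sufficient PL (adjusted p = 3.11e-05), and in RA-deficient PL it was 0.80 ± 0.15 above RA-sufficient PL (adjusted p = 0.0117), under the fold threshold. Eif3d, a subunit able to bind the cap of some mRNAs, was at 420 ± 35.0, 165 ± 17.9 and 206 ± 22.1 CPM and fell by 1.30 ± 0.13 in RA-sufficient PL (adjusted p = 5.5e-05). Eif3h, Eif3i and Eif3k had log2 fold changes of -1.22 ± 0.12, -1.21 ± 0.15 and -1.25 ± 0.13 there.

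The other 7 eIF3 genes were not called in RA-sufficient PL. Eif3a, the largest subunit, was at 700 ± 43.3, 475 ± 35.1 and 638 ± 66.7 CPM, with a log2 fold change of -0.51 ± 0.11 in RA-sufficient PL (adjusted p = 0.00353) and 0.03 ± 0.11 in RA-deficient PL (adjusted p = 0.852). Eif3e, named after its values were seen, was the 1 gene of the 12 whose RA-sufficient PL libraries overlapped with In/B, at 126 ± 7.78, 119 ± 6.46 and 122 ± 30.0 CPM. In RA-deficient PL, 9 of the 12 were fitted lower than In/B, with a median of -0.44, and all 12 were with scaling by library size alone. Eif3m alone was called there. It was at 125, 114 and 114 CPM in In/B, 65.2, 58.0 and 62.4 CPM in RA-sufficient PL and 54.5, 43.3 and 35.5 CPM in RA-deficient PL (log2 fold change from In/B -1.24 ± 0.18, adjusted p = 0.00159), and it was the lowest in RA-deficient PL, unlike the other called eIF3 genes.

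At the mRNA cap, the usual form of eIF4E and its relatives differed from one another. Eif4e was at 126 ± 5.67, 111 ± 10.3 and 183 ± 11.2 CPM, and Eif4e2, a form that binds the cap without recruiting eIF4G, at 161 ± 9.09, 205 ± 21.2 and 254 ± 4.66 CPM in In/B, RA-sufficient PL and RA-deficient PL. Both were highest in RA-deficient PL with log2 fold changes from In/B of 0.70 ± 0.11 (adjusted p = 0.00237) and 0.82 ± 0.10 (adjusted p = 0.000681), under the fold threshold. Another form, Eif4e3, was at 5.09, 3.29 and 3.84 CPM in In/B and 1.25, 2.00 and 1.10 CPM in RA-sufficient PL, where it was called lower (-1.43 ± 0.41, adjusted p = 0.013). In RA-deficient PL it varied from 5 counts in replicate 2 to 103 in replicate 3, and it shares exon sequence with Foxp1 on the same strand.

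Eif4e1b (chr13:54885359-54889820, plus strand) rose in RA-sufficient PL from next to no counts. It had 0, 3 and 0 counts in In/B, 100, 64 and 83 counts (7.36, 3.88 and 3.66 CPM) in RA-sufficient PL, and 0 counts in each of the 3 RA-deficient PL libraries. RA-sufficient PL thus exceeded In/B by 96.8-fold in summed counts scaled for depth (exact 95% interval 32.7 to 473), and RA-deficient PL by at least 40.3-fold, taking 3 counts per library as the limit that a count of 0 allows. The interval and the limit cover counting error only. Both calls held under every alternative that gave a value (adjusted p = 0.00017 and 0.00484 in edgeR's quasi-likelihood test), and the same libraries carried the Sertoli cell markers given above, whose part was not tested.

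The genes of the eIF4E inhibitors, which hold eIF4E away from eIF4G, moved in opposite directions from In/B to PL. Between the PL groups all 4 were fitted higher in RA-deficient PL, 3 of them at an adjusted p below 0.05. Of all genes, 53.9% were fitted lower there and 11% were higher at that adjusted p. Eif4ebp1 (chr8:28370799-28386128, plus strand) was at 61.5, 46.0 and 36.3 CPM in In/B, 6.77, 7.82 and 7.28 CPM in RA-sufficient PL and 25.8, 20.1 and 10.3 CPM in RA-deficient PL. The groups did not overlap, and RA-deficient PL replicate 3 lay nearest to RA-sufficient PL. It fell by 2.66 ± 0.24 on the log2 scale in RA-sufficient PL (adjusted p = 3.88e-05) and by 1.19 ± 0.36 in RA-deficient PL (adjusted p = 0.0323), and was 1.36 ± 0.38 higher in RA-deficient than in RA-sufficient PL (adjusted p = 0.0394). Leaving out single libraries removed each of the last 2 calls in 5 of 6 cases (adjusted p up to 0.121 and 0.127), and scaling by library size alone or a replicate block (adjusted p = 0.0763) removed the last.

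Its relative Eif4ebp2 was at 146 ± 8.12, 66.5 ± 6.00 and 115 ± 15.8 CPM and fell in RA-sufficient PL (-1.08 ± 0.12, adjusted p = 0.000116). Eif4ebp3 rose instead, from 33.3, 39.1 and 33.7 CPM in In/B to 68.6, 105 and 102 CPM in RA-sufficient PL and 106, 142 and 171 CPM in RA-deficient PL, with log2 fold changes of 1.43 ± 0.18 (adjusted p = 0.000214) and 2.15 ± 0.20 (adjusted p = 0.000189). Its exons overlap with those of Ankhd1 on the same strand, so that the counts of these genes may not be separate. Eif4enif1, whose protein 4E-T holds eIF4E in repressed mRNA particles, was at 340 ± 13.7, 484 ± 37.9 and 625 ± 50.3 CPM and rose in RA-deficient PL (1.04 ± 0.10, adjusted p = 0.000227), a call just past the fold threshold that was lost without RA-deficient PL replicate 3, with scaling by library size alone or with all 9 libraries in 1 fit.

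**Figure D3:**
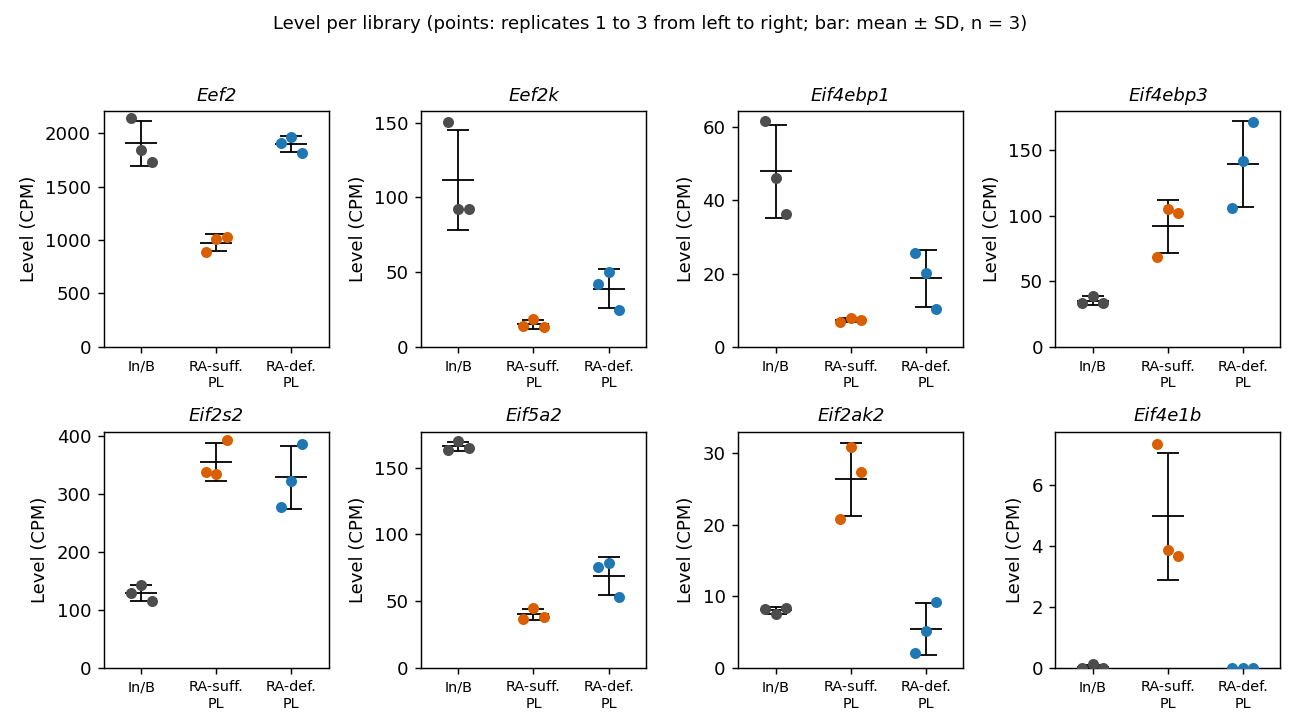
Level in CPM (y axis) of 8 factor genes in the libraries of the 3 groups (x axis), with points for replicates 1 to 3 from left to right and a bar for the mean ± SD (n = 3). Eef2k and Eif4ebp1 are lowest in RA-sufficient PL with RA-deficient PL between, Eif4ebp3 and Eif2s2 are higher in both PL groups, and Eif2ak2 and Eif4e1b are high in RA-sufficient PL alone.

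Of the scaffold genes, Eif4g1 fell in RA-sufficient PL, at 774 ± 49.0, 366 ± 28.2 and 439 ± 54.1 CPM in the 3 groups (-1.03 ± 0.11, adjusted p = 9.58e-05). Eif4g3, a paralog used in spermatogenesis, was at 590 ± 48.7, 349 ± 68.5 and 481 ± 90.6 CPM, and Eif4g2, which lacks the eIF4E-binding part and serves cap-independent initiation, at 1192 ± 125, 1307 ± 112 and 1654 ± 218 CPM. Neither was called. Among the helicase genes, Eif4a3, whose protein also sits in the exon junction complex, fell in both PL groups. It was at 266, 271 and 272 CPM in In/B, 66.7, 90.8 and 100 CPM in RA-sufficient PL and 114, 119 and 108 CPM in RA-deficient PL (log2 fold changes -1.59 ± 0.15, adjusted p = 5.55e-05, and -1.08 ± 0.11, adjusted p = 0.000268). Eif4a1 was at 496 ± 19.6, 276 ± 8.75 and 181 ± 10.2 CPM and was called lower in RA-deficient PL (-1.29 ± 0.10, adjusted p = 0.000117), with 74.1% of its 75-base stretches also found elsewhere in the genome. Its paralog Eif4a2 was at 265 ± 6.51, 144 ± 3.72 and 121 ± 9.76 CPM. Its log2 fold changes from In/B were -0.83 ± 0.10 (adjusted p = 0.000137) and -0.97 ± 0.11 (adjusted p = 0.000498), under the fold threshold. In RA-deficient PL it was called with scaling by library size alone, with all 9 libraries in 1 fit or without RA-deficient PL replicate 1. Eif4b, a cofactor of the helicase, was highest in RA-deficient PL, at 371 ± 11.2, 322 ± 35.7 and 506 ± 12 CPM, with a log2 difference between the PL groups of 0.65 ± 0.10 (adjusted p = 0.00527). Eif5b, which joins the ribosomal subunits, was at 621 ± 28.7, 545 ± 35.7 and 749 ± 50.6 CPM and was not called.

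Among the elongation factor genes, Eif5a2 (chr3:28680233-28697768, plus strand) fell in both PL groups, while Eif5a, the common form of this hypusine-carrying factor, differed less. Eif5a2 was at 163, 170 and 165 CPM in In/B, 36.9, 44.9 and 38.4 CPM in RA-sufficient PL and 75.7, 78.5 and 52.7 CPM in RA-deficient PL. Its groups did not overlap. The log2 fold changes were -2.0 ± 0.13 (adjusted p = 1.18e-05) and -1.10 ± 0.17 (adjusted p = 0.00203, not past the fold threshold without RA-deficient PL replicate 3), and the difference between the PL groups was 0.78 ± 0.20 (adjusted p = 0.0312). Eif5a was at 634 ± 77.0, 396 ± 39.4 and 367 ± 2.76 CPM and was not called.

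Eef1a1 fell from 2364, 2258 and 1995 CPM in In/B to 1054, 919 and 929 CPM in RA-sufficient PL (-1.13 ± 0.12, adjusted p = 7.34e-05) and was at 1301, 1248 and 1103 CPM in RA-deficient PL (-0.69 ± 0.10, adjusted p = 0.00171, not called). With 53.1% of its stretches found elsewhere in the genome, its level depends on how shared reads were counted. Of its exchange complex and partners, Eef1d fell in RA-sufficient PL (-1.32 ± 0.17, adjusted p = 0.000188) and Eef1g and Eef1e1 in both PL groups. Eef1e1, which encodes a partner of the multi-tRNA synthetase complex, was at 49.3, 58.0 and 57.4 CPM in In/B, 15.1, 14.6 and 14.7 CPM in RA-sufficient PL and 15.7, 10.3 and 12.6 CPM in RA-deficient PL. These are log2 fold changes of -1.84 ± 0.16 (adjusted p = 2.94e-05) and -1.92 ± 0.21 (adjusted p = 0.000421), the PL groups overlapped, and the gene kept both calls under all alternatives. Eef1akmt1, a methyltransferase of eEF1A, was at 7.47 ± 1.00, 7.30 ± 0.856 and 4.13 ± 0.814 CPM and was not called.

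Eef2 and the genes of enzymes that modify eEF2, Eef2k and Eef2kmt, were all fitted lower in RA-sufficient PL than in In/B. In RA-deficient PL Eef2k and Eef2kmt fell and Eef2 did not. Eef2 (chr10:80639376-80645252, plus strand) was at 2139, 1844 and 1729 CPM in In/B, 886, 1009 and 1029 CPM in RA-sufficient PL and 1909, 1965 and 1815 CPM in RA-deficient PL. The RA-sufficient libraries were below all others and those of RA-deficient PL lay within the In/B range. The log2 fold change from In/B was -0.91 ± 0.13 in RA-sufficient PL (adjusted p = 0.0003) and 0.16 ± 0.11 in RA-deficient PL (adjusted p = 0.282, -0.16 with scaling by library size alone), and the PL groups differed by 0.96 ± 0.10 (adjusted p = 0.00132). None passed the fold threshold, and the values of -0.91 and 0.96 lay close to it.

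Eef2k (chr7:127986345-128050733, plus strand), the kinase that inactivates eEF2, had the largest fall of all factor genes in RA-sufficient PL. It was at 151, 92.4 and 92.2 CPM in In/B, 13.8, 18.4 and 13.0 CPM in RA-sufficient PL and 42.2, 49.9 and 24.7 CPM in RA-deficient PL. The groups did not overlap, and RA-deficient PL replicate 3 again lay nearest to RA-sufficient PL. The log2 fold changes from In/B were -2.84 ± 0.25 (adjusted p = 3.77e-05) and -1.36 ± 0.31 (adjusted p = 0.0111), and RA-deficient PL was 1.37 ± 0.31 above RA-sufficient PL (adjusted p = 0.0217, up to 0.0852 when any library other than RA-deficient PL replicate 3 was left out). Eef2kmt, whose product methylates eEF2, was at 26.4, 20.7 and 19.6 CPM in In/B, 19.4, 16.1 and 15.6 CPM in RA-sufficient PL and 5.80, 9.75 and 6.73 CPM in RA-deficient PL. It fell in RA-deficient PL against In/B (-1.41 ± 0.30, adjusted p = 0.00811) and against RA-sufficient PL (-1.21 ± 0.32, adjusted p = 0.0328), the second call being lost without RA-deficient PL replicate 1 or any of the RA-sufficient libraries (adjusted p up to 0.105), and with a replicate block (adjusted p = 0.071).

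The calls from the comparisons with In/B, which share the In/B libraries, combined as follows. The 6 genes that fell in both were Eef1e1, Eef1g, Eef2k, Eif4a3, Eif4ebp1 and Eif5a2, and the 2 that rose in both were Eif2s2 and Eif4ebp3. A further 14 genes were called lower in RA-sufficient PL and not in RA-deficient PL, and 0 of these 14 were called between the PL groups. Another 4, Eef2kmt, Eif2d, Eif3m and Eif4a1, were called lower in RA-deficient PL and not in RA-sufficient PL, and of these Eef2kmt was called between the PL groups. Eif4enif1 and Eif1ad rose in RA-deficient PL only, Eif2ak2 rose in RA-sufficient PL only, and Eif4e1b rose there and was not tested in RA-deficient PL. The share of all genes with each combination was not counted, so the combinations are not read as particular to the factor genes. Of all genes, 45.4% were called in RA-sufficient PL and 23.2% in RA-deficient PL. The mean of RA-deficient PL lay between the other groups for 31 of the 63 genes (49.2%), where it did for 44.8% of all genes tested. Of the 20 genes that fell in RA-sufficient PL, 16 were lowest in replicate 3 among the RA-deficient libraries (80.0%), where 66.6% of the 2895 genes that fell in RA-sufficient PL were.

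**Figure D4:**
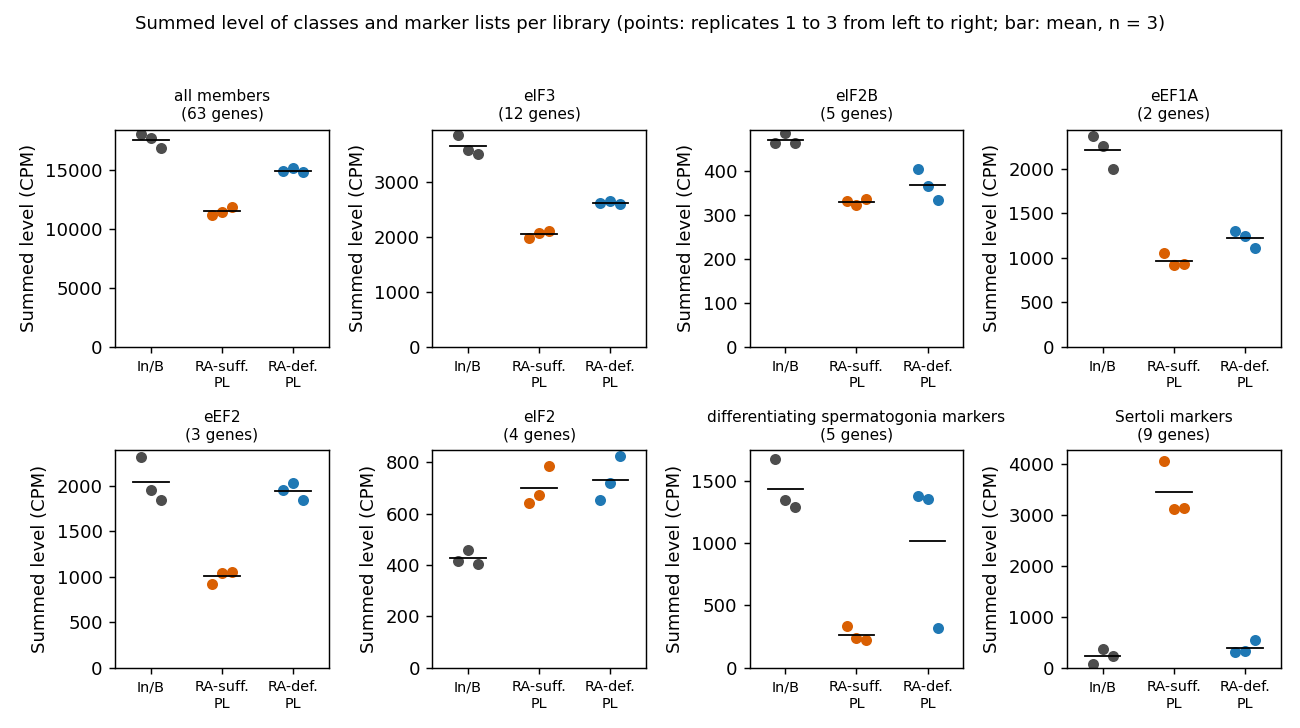
Summed level in CPM (y axis) of all 63 factor genes, of 5 of their classes and of a pair of marker lists in each library of the 3 groups (x axis), with points for replicates 1 to 3 from left to right and a bar for the mean. The eIF3 and eEF1A sums are lower in both PL groups than in In/B, the eEF2 sum is lower in RA-sufficient PL alone, the eIF2 sum is higher in both, and the Sertoli cell markers reach 3119 to 4069 CPM in RA-sufficient PL.

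RefSeq (GRCm38.p6) listed 64 start sites for 49 of the 63 genes, and the 250 bases before each start were searched on both strands for letters chosen with earlier results of these data known. A gene was counted when any of its starts held the letters. The E-box CACGTG, bound by MYC and MAX dimers among other factors, occurred at 11 of the 49 genes (22.4%), where it does at 6.86% of 27025 genes. Unlike the factor genes, these 27025 were not limited to genes with counts in these libraries. Counted per start, since genes with more starts offer more sequence (a mean of 1.31 starts per factor gene and 1.22 over all genes), it was at 13 of 64 (20.3%), where 6.02% of 32851 were. The genes were Eef2, Eef2k, Eif1b, Eif3f, Eif3k, Eif4a1, Eif4e, Eif4g1, Eif4h, Eif5a and Eif5a2. Of these 11 genes 4 fell in RA-sufficient PL, where 20 of the 62 factor genes tested and 19.3% of all genes fell. A link between the E-box and the fall was not tested. Sequences of these 4 genes are shown, 5′ to 3′ up to the base before the start, with the E-box in capitals. They lie at chr7:120842581-120842830 (Eef2k, plus strand), chr3:28781027-28781276 (Eif5a2, plus strand), chr7:28981889-28982138 (Eif3k, minus strand) and chr16:20672477-20672726 (Eif4g1, plus strand) of GRCm38.p6, a later build than that of the gene positions given above.
Eef2k: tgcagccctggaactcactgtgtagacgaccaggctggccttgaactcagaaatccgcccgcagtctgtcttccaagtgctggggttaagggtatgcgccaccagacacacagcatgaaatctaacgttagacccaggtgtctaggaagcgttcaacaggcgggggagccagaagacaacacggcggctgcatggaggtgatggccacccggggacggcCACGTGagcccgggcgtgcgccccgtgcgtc
Eif5a2: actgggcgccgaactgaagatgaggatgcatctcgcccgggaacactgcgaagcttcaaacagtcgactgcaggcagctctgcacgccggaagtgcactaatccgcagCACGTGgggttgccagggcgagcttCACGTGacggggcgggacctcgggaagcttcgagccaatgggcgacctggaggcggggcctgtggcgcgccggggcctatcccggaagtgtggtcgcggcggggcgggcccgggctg
Eif3k: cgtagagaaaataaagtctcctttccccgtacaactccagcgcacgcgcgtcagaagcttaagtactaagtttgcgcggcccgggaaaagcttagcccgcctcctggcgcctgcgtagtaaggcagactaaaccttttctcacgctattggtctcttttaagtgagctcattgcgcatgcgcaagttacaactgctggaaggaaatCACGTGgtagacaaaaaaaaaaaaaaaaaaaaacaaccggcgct
Eif4g1: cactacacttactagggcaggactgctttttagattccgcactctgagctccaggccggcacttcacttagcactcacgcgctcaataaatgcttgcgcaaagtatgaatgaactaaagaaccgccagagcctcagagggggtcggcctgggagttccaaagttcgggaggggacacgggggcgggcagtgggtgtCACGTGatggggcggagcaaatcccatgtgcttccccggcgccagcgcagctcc
The E-box begins 31, 142, 44 and 54 bases before the start in these genes in turn, and Eif5a2 has 2 of them. The STRA8 motif CNCCTCAG was found at Eif3d, at Eif4ebp2 and at another of the 3 starts of Eef2k than the one shown, 6.12% of the 49 genes beside 7.39% of all, and the ETS motif CCGGAAGT at Eif3d, Eif3l, Eif4e2, Eif5a and Eif5a2, 10.2% beside 3.23%. Exact direct repeats of AGGTCA with a spacer of 5 or 2 bases, the form in which the RA response element was searched, were at 0 of the 49 genes. They were at 3 and 2 of all 27025, respectively. Letters this rare would be missing from almost any 49 genes, and looser forms were not searched, so nothing is drawn from the 0. No motif contains another. These matches describe letters in the sequence and no binding was measured.

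Around these factors, 55 other genes of translation and its control were followed, of which 53 were tested in RA-sufficient PL and 52 in each of the other comparisons. In RA-sufficient PL 7 rose and 9 fell, where 26.1% and 19.3% of all genes did, with a median log2 fold change of -0.18. In RA-deficient PL 8 rose and 5 fell, where 11.4% and 11.8% of all genes did, with a median of -0.01. Between the PL groups 0 were called higher and 2 lower in RA-deficient PL, where 4.47% and 11% of all genes were. Of 9 genes of the mTORC1 pathway, whose kinase releases eIF4E from the 4E-BPs and restrains the eEF2 kinase, 4 rose and 2 fell in RA-deficient PL, 1 rose and 2 fell in RA-sufficient PL, and 0 were called between the PL groups. Mtor itself was at 249, 294 and 291 CPM in In/B, 359, 493 and 469 CPM in RA-sufficient PL and 535, 512 and 610 CPM in RA-deficient PL (log2 fold changes 0.72 ± 0.14, adjusted p = 0.00202, and 1.16 ± 0.11, adjusted p = 0.000253). Tsc2, a brake on mTORC1, fell in both (-1.82 ± 0.13 and -1.01 ± 0.23). The 9 genes ranged from -1.82 to 1.24 in RA-sufficient PL and from -1.46 to 2.26 in RA-deficient PL, and their other called genes are not named here. Of 10 genes of the response to eIF2 phosphorylation, 9 were tested, of which 1 rose and 2 fell in RA-sufficient PL (median 0.32), 2 rose and 0 fell in RA-deficient PL (median -0.01), and 1 was lower between the PL groups. Among them Atf4, whose mRNA is translated when eIF2 is phosphorylated, fell in RA-sufficient PL from 159, 152 and 149 CPM to 59.4, 55.7 and 58.2 CPM (-1.35 ± 0.11, adjusted p = 2.61e-05) and was at 93.7, 110 and 62.5 CPM in RA-deficient PL.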

How the data were processed

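Per the labels and the study's methods, the authors sequenced stranded libraries single-end, used cutadapt 1.9 for trimming and STAR 2.5.2b for alignment to mm9, and deposited whole-number counts per gene from featureCounts. The annotation, strand setting and treatment of reads that map to several places are not given in the sources used here. The 9 libraries were grouped by their labels, and 3 libraries per group limit the precision. Genes and lists were chosen with earlier results of these data known. Counts were scaled by TMM, filtered with filterByExpr and compared between pairs of groups with the quasi-likelihood test of edgeR 4.0.16 (R 4.3.3), with Benjamini-Hochberg adjustment over all genes tested, and the steps were tested on simulated data. Standard errors are of the fitted log2 fold change. CPM is the count relative to the library total multiplied by its TMM factor. Gene positions, exon lengths and the 75-base stretches found elsewhere come from GENCODE M1 on NCBIM37 (mm9), which named 61 of the 63 genes directly and 2 by an older name. Of these, 18 overlap exons of another gene. The text names factor genes called in any comparison, pairs of paralogs, the eIF2 kinases, the eIF4G genes, the eIF4E inhibitors and the most abundant gene of each class, and marks others. Of the pathway lists it names only Tsc2, Atf4 and Mtor, and the other called genes of these lists are not named. Alternatives were scaling by RLE or library size, no filter, a minimum mean of 50 counts, 1 fit of all 9 libraries, a replicate block, other thresholds, DESeq2 1.42.0 and leaving out each library.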

Additional observations from a re-analysis of the deposited data

Results flagged for a closer look

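The PL groups, which had the same age and differed in continued WIN18,446, were tested against each other directly, and 5 of 62 factor genes differed past the fold threshold (edgeR's quasi-likelihood test), where 15.5% of all genes did. Except for Eif4e1b, each of these calls was lost when particular single libraries were left out. Eef2k was 1.37 higher on the log2 scale in RA-deficient PL, and each of its RA-deficient libraries was above each RA-sufficient library. Eif4ebp1 was 1.36 higher, likewise without overlap. Eef2kmt differed by -1.21 and Eif2ak2 by -2.27, with every RA-deficient library below every RA-sufficient library. Eif4e1b had 0 counts in the RA-deficient libraries and was at least 40.3-fold lower there.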

How the results depend on the processing

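With 3 libraries per group, calls near the fold threshold depended on single libraries, and the counts of calls ranged from 22 to 25, from 11 to 18 and from 1 to 5 with a library left out (RA-sufficient PL against In/B, RA-deficient PL against In/B, and RA-deficient against RA-sufficient PL). The corresponding medians of the log2 fold change ranged from -0.74 to -0.65, from -0.47 to -0.33 and from 0.27 to 0.34. Calls over all genes ranged from 6553 to 6837, from 2639 to 3995 and from 1190 to 4484 with a library left out. In the last comparison leaving out RA-sufficient PL replicate 1, 2 or 3 gave 1 called factor gene, and RA-deficient PL replicate 1 or 2 gave 2. With no fold threshold 47, 41 and 22 genes passed, and at an adjusted p of at most 0.01 the last comparison gave 1. The median in RA-sufficient PL against In/B was -0.66 with a mean of at least 50 counts and -0.76 with all 9 libraries in 1 fit, where that of RA-deficient PL against In/B was -0.56. With library size alone the medians of the comparisons of RA-deficient PL were -0.74 and 0.13. The number of genes fitted higher went from 23 to 16 against In/B and from 44 to 38 against RA-sufficient PL. Among named genes whose main value exceeded its standard error, Eef2 (-0.16) and Eif1b (-0.15) against In/B and Eif3i (-0.050) against RA-sufficient PL changed sign. Deviations of same-numbered libraries from their group means correlated weakly (from -0.27 to 0.13), and the libraries were not treated as paired. With 3 libraries per group such values cannot exclude that same-numbered libraries shared a preparation. A replicate block gave 24, 15 and 3 calls, and 6373, 3208 and 1765 over all genes. DESeq2 gave 24, 15 and 5, and 7305, 3973 and 3258 over all genes. Of 1985 values of the named genes under an alternative, 1908 were counted as unchanged, 46 lost and 28 gained a call, and 3 changed sign. A sign change was counted only if the gene was called in either fit or its main value exceeded its standard error. Smaller sign changes are among the 1908. The causes were not tested.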
